A study of Homo sapiens with 8 samples.

Results

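The 8 genes EGR1, ATF3, IER3, NR4A1, NR4A2, FOSB, SPRY1 and PHLDA1, known as immediate-early or ERK-responsive genes, were taken by symbol from a deposited table of 1950 genes, and all 8 were in it. RNA was sequenced from 8 libraries of K562, an established human chronic myeloid leukemia cell line. In 4 libraries the cells had been given an extract of Caulis Polygoni Multiflori, a medicinal plant stem, at 80 µg/mL for 3 days, and 4 control libraries came from K562 cells without it. How long the controls were cultured, and whether they got a vehicle, is not in the labels, so a difference in either cannot be told apart from the extract. According to the title of the series, the extract speeds the formation of megakaryocytes and platelets by activating PI3K/AKT and MEK/ERK signaling. The genes described here can respond to MEK/ERK signaling but also to other inputs. Their RNA levels do not measure the activity of that pathway, which was not tested here. The labels do not say whether the 4 libraries of a group were grown separately. The p-values therefore speak of the spread among the libraries, and that spread may be technical.

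Immediate-early genes are transcribed within minutes of a signal, without new protein synthesis, and most of their RNAs are short-lived. In the MEK/ERK cascade the kinase ERK phosphorylates ELK1 and related factors that sit with serum response factor (SRF) on a DNA element called the CArG box, and other inputs reach the same promoters through CREB on the cyclic AMP response element (CRE). Some products, such as the Sprouty proteins, feed back and damp the cascade. RNA was taken after 3 days, so the values are levels at that time and not the early response to the extract.

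All 8 genes lie on GRCh38, the build named in the submitters' processing notes, and positions are from GENCODE v29. EGR1 spans chromosome 5, 138465490 to 138469315, on the plus strand, and ATF3 chromosome 1, 212565334 to 212620777, also plus. NR4A1 (chromosome 12, 52022832 to 52059507, plus) and NR4A2 (chromosome 2, 156324432 to 156342348, minus) code for related orphan nuclear receptors. FOSB lies at chromosome 19, 45467995 to 45475179 (plus), SPRY1 at chromosome 4, 123396795 to 123403760 (plus), IER3 at chromosome 6, 30743199 to 30744554 (minus), and PHLDA1 at chromosome 12, 76025447 to 76033932 (minus). EGR1, ATF3, NR4A2 and SPRY1 overlap no other annotated gene. FOSB overlaps ERCC1, IER3 overlaps IER3-AS1, NR4A1 overlaps AC025259.3 and PHLDA1 overlaps AC011611.3 and AC011611.4, each on the opposite strand. The sources used here do not say whether strand was used in counting, and reads of these 4 genes and their partners may be mixed.

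The promoters of EGR1, a gene abundant enough to test, and of FOSB, too low to test, are shown. The EGR1 window held CArG boxes and CRE core sites, while that of FOSB held a CRE core site and no CArG box. Each line gives the 250 bases before the RefSeq start (GRCh38.p14, plus strand), with motif matches in capitals.

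EGR1, chr5:138465229-138465478: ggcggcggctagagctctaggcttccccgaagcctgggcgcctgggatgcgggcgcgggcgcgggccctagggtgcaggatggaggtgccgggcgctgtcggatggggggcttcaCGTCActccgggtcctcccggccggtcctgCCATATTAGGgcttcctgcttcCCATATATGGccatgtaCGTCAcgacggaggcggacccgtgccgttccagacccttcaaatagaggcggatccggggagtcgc
FOSB, chr19:45467746-45467995: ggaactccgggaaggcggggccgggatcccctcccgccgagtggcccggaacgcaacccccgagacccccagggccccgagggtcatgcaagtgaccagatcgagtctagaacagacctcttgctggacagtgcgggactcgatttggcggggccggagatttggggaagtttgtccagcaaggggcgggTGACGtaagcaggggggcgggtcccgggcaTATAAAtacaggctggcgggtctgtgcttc

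The capitals in EGR1 mark 2 CArG boxes, CCATATTAGG and CCATATATGG, and 2 CRE core sites (TGACG, on the minus strand, read here as CGTCA). The CArG boxes lie 105 to 96 and 83 to 74 bases before the start. Those in FOSB mark 1 CRE core site, 60 to 56 bases before the start, and 1 TATA box (TATAAA), 30 to 25 bases before it. Such windows were found for 6 of the 8 genes (9 windows in all). Both strands were searched for the CArG box, the CRE (TGACGTCA), its core TGACG, which also lies within the full CRE, the AP-1 site TGANTCA, the EGR sites GCGGGGGCG and GCGTGGGCG, TATAAA and the NR4A site AAAGGTCA. Of 35116 such windows over all genes in the RefSeq table, 1.16% held a CArG box, and 0.0313% held at least 2, as EGR1 does. The core was in 21.2% of windows and TATAAA in 10.7%. In the other windows of the group, an EGR site (GCGGGGGCG, 4.72% of all windows) lay before a start of SPRY1. An NR4A site (1.05%) and a TATAAA lay before 2 starts of ATF3, and the windows of NR4A1 and PHLDA1 held none of these motifs. The full CRE (1.65%), the AP-1 site (6.57%) and GCGTGGGCG (0.72%) were in none of the 9 windows. GENCODE v29 gives 19 start positions for NR4A1 and 7 for ATF3, more than the windows searched for either gene. An absence here therefore does not describe all promoters of a gene. A match describes these letters and is not evidence of binding in these cells, and gene-level values do not show which start was used.

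With the extract, 7 of the 8 genes had a lower mean and PHLDA1 had a higher one. The means of the 7 were between 47.2% (NR4A1) and 66.1% (SPRY1) of the control mean, and the values of the 2 groups did not overlap for 5 of them. The values are the authors' expression values, whose unit the sources used here do not give. They are not read counts, the sequencing depth is unknown, and levels of different genes are therefore not compared with each other. The table holds only genes that the authors' own test had picked, with no deposited p-value above 0.0499 and no change under 1.5-fold, so that no test below is independent evidence of a difference. Being listed at all is thus the starting point for every gene, and the size and evenness of the change is what the values add. In bulk RNA, fewer cells with a transcript and less of it per cell cannot be told apart.

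**Figure D1:**
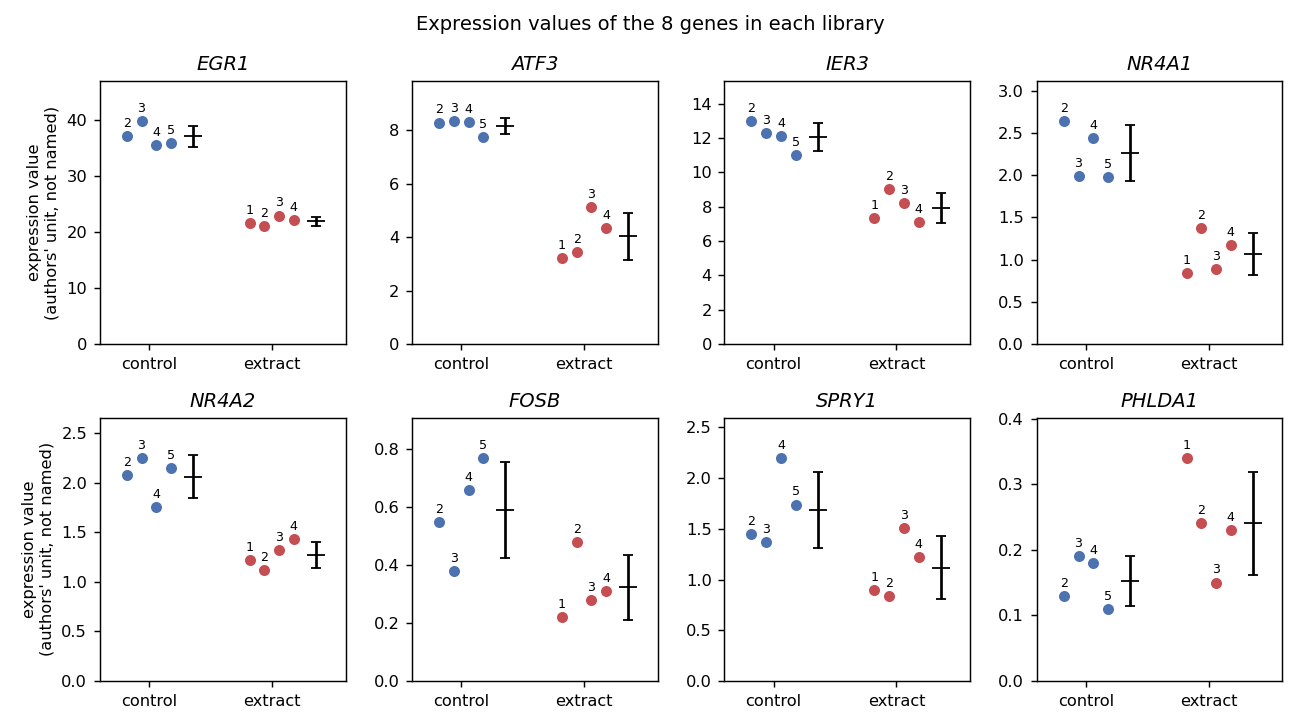
Expression value (vertical axis from 0, authors' unit) of each of the 8 genes in the 4 control and the 4 extract libraries. Each point is a library with its number, and the bar is the mean with its SD. The groups are apart for EGR1, ATF3, IER3, NR4A1 and NR4A2, and overlap for FOSB, SPRY1 and PHLDA1.

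Among the transcription factors, EGR1, a zinc finger factor that growth signals induce, showed the most even fall. Its values were 37.16, 39.84, 35.51 and 35.95 in controls 2, 3, 4 and 5, and 21.58, 21.18, 22.99 and 22.24 in extract libraries 1 to 4. Every extract library was thus below every control, with 12.5 units between the nearest 2 libraries. The mean went from 37.1 ± 1.95 to 22.0 ± 0.793 (SD, n = 4 each), 1.69-fold lower. The log2 change on log2(value + 1), the scale of all log2 changes here unless another is named, was −0.73 with a standard error of 0.0517 (limma adjusted p = 1.12e-05). By limma p EGR1 was number 35 of the 750 tested genes. Its call was lost with quantile normalization, at a log2 change of −0.17 (limma adjusted p = 0.0561), and with the 8 fits that each left out 1 library the change lay between −0.75 and −0.69.

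ATF3, a basic leucine zipper factor of the stress response that also answers to growth signals, had a larger fall with more spread among the extract libraries. The controls had values of 8.29, 8.34, 8.32 and 7.73, and the extract libraries 3.22, 3.45, 5.13 and 4.36. The highest extract library, number 3, still lay 2.6 units below the lowest control. ATF3 fell 2.02-fold, from 8.17 ± 0.294 to 4.04 ± 0.878, a log2 change of −0.88 ± 0.125 (SE, limma adjusted p = 0.000479). Of all tested genes, 10.8% had a more negative change. The coefficient of variation was 3.6% in the controls and 21.7% in the extract libraries, the widest gap in spread among the 8 genes.

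NR4A1 and NR4A2 (also known as NUR77 and NURR1), nuclear receptors whose activity follows their abundance rather than a known hormone, were both lower. NR4A1 had values of 2.64, 1.99, 2.44 and 1.98 in the controls and of 0.84, 1.37, 0.89 and 1.17 with the extract. No extract library reached the lowest control, and by the ratio of the group means NR4A1 had the largest fold difference of the 8 genes, 2.12-fold. In the authors' deposited table FOSB had a larger fall (log2 fold change −1.57) than NR4A1 (−1.22). The log2 change of NR4A1 was −0.66 ± 0.121 (SE, limma adjusted p = 0.00172), which understates the fold because the values are low. NR4A2 had values of 2.08, 2.25, 1.75 and 2.15 in the controls and of 1.22, 1.12, 1.32 and 1.43 with the extract. The gap between the groups was 0.32, the narrowest of the 5 genes without overlap. NR4A2 was 1.62-fold lower, with a log2 change of −0.43 ± 0.0936 (SE, limma adjusted p = 0.00395). That change lay nearer to 0 than the median of all tested genes, −0.5, and after median centring, at −0.16, it was no longer called (limma adjusted p = 0.17). With quantile normalization NR4A2 was still called (−0.28, limma adjusted p = 0.0273). The third receptor of the family, NR4A3, was listed at 0.09 or less in every library and could not be tested.

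FOSB, a partner of JUN proteins in the AP-1 factor, was too low to test, with no library at or above 1. Its values were 0.55, 0.38, 0.66 and 0.77 in the controls and 0.22, 0.48, 0.28 and 0.31 with the extract. Extract library 2 was above control 3, so the groups overlapped. The mean went from 0.59 ± 0.166 to 0.323 ± 0.111, and an exact two-sided permutation test over the 8 libraries gave p = 0.0571. Fitted without a filter, FOSB had a limma adjusted p of 0.065. The authors' deposited table gives FOSB a log2 fold change of −1.57 with an adjusted p of 2.94e-05. The log2 ratio of the deposited values' means was −0.87, and which quantity the deposited fold change was computed from is not stated in the labels or the table.

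IER3, an immediate-early gene whose product acts on cell survival and on ERK signaling, fell by a moderate amount. Its values were 12.98, 12.27, 12.09 and 11.01 in the controls and 7.33, 9.01, 8.21 and 7.11 with the extract, with no overlap. IER3 was 1.53-fold lower, from 12.1 ± 0.815 to 7.92 ± 0.871, with a log2 change of −0.56 ± 0.0865 (SE, limma adjusted p = 0.000763). In the authors' deposited table its log2 fold change was −0.588, just past the least change that any listed gene has, 0.5851 in absolute size. By fold change IER3 was therefore the gene of the 8 nearest to the edge of the table, and by deposited p-value it was PHLDA1 (0.0382).

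The feedback inhibitor SPRY1, which restrains receptor signaling to ERK, differed less clearly. It had values of 1.45, 1.37, 2.2 and 1.74 in the controls and of 0.9, 0.84, 1.51 and 1.22 with the extract. Extract library 3 exceeded controls 2 and 3. SPRY1 was 1.51-fold lower in the means, with a log2 change of −0.35 ± 0.142 (SE, limma adjusted p = 0.0488). When each library was left out in turn, SPRY1 was called in 2 of 8 fits (without control 3 and without extract 3) and missed when control 2, 4 or 5 or extract 1, 2 or 4 was absent. The limma adjusted p then ran from 0.0263 to 0.121. Median centring brought the log2 change to −0.08 (limma adjusted p = 0.61), and quantile normalization gave an adjusted p of 0.173. The exact permutation test over the 8 libraries gave p = 0.0857 for SPRY1.

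PHLDA1, a pleckstrin homology-like protein induced by growth factors, was the gene of the 8 with the higher mean. The controls were at 0.13, 0.19, 0.18 and 0.11 and the extract libraries at 0.34, 0.24, 0.15 and 0.23. Extract library 3 lay among the controls, and all libraries were far below the value of 1 needed for the test. The mean was 0.152 ± 0.0386 in the controls and 0.24 ± 0.0779 with the extract (exact permutation p = 0.0857). The authors' deposited table gives a log2 fold change of 0.67 with an adjusted p of 0.305, so that this gene did not pass 0.05 there either. Without a filter its limma adjusted p was 0.193.

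Of the 8 genes 6 could be tested, and all 6 were called lower (limma adjusted p under 0.05). Among all 750 tested genes 56% were called lower and 26.8% higher, so a lower call was the usual outcome in this table. By the adjusted p of the authors' deposited table, 7 of the 8 passed 0.05, all 7 lower, against 27.7% of the 1950 listed genes that were lower at that threshold. Extract and control values were fully apart for 5 of the 8, all 5 lower, against 27.3% of the 1950 listed genes with extract below control. Both shares are over all listed genes, of which 750 could be tested, against 6 of the 8. They therefore set the 8 beside a set with more genes too low to test. For those 5 genes an exact two-sided permutation test over the 8 libraries gave p = 0.0286, the smallest value that 4 against 4 libraries allow. The 6 tested genes had a median log2 change of −0.61, and all tested genes −0.5. The genes called lower were 420 and those called higher 201, a split that became 241 and 228 with median centring and 251 and 222 with quantile normalization. With the extract the median tested gene of a library was lower by 0.27 on the log2 scale, which those scalings remove. Only genes that the authors' test had picked as changed entered these scalings. Whether they remove a shift of whole libraries or part of the change itself cannot be told. Calls kept or lost under them, here and elsewhere in the text, carry this limit. With median centring the log2 changes were −0.61 for ATF3, −0.46 for EGR1, −0.39 for NR4A1 and −0.29 for IER3, and these 4 calls held against 32.1% of tested genes called lower. Under quantile normalization 4 calls held as well, with NR4A2 in place of EGR1. Adjusted over the family of 60664 genes that the authors' adjusted p-values imply, 2 calls were left, EGR1 (limma adjusted p = 0.000904) and ATF3 (0.0388), where 16.3% of tested genes were called lower.

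**Figure D2:**
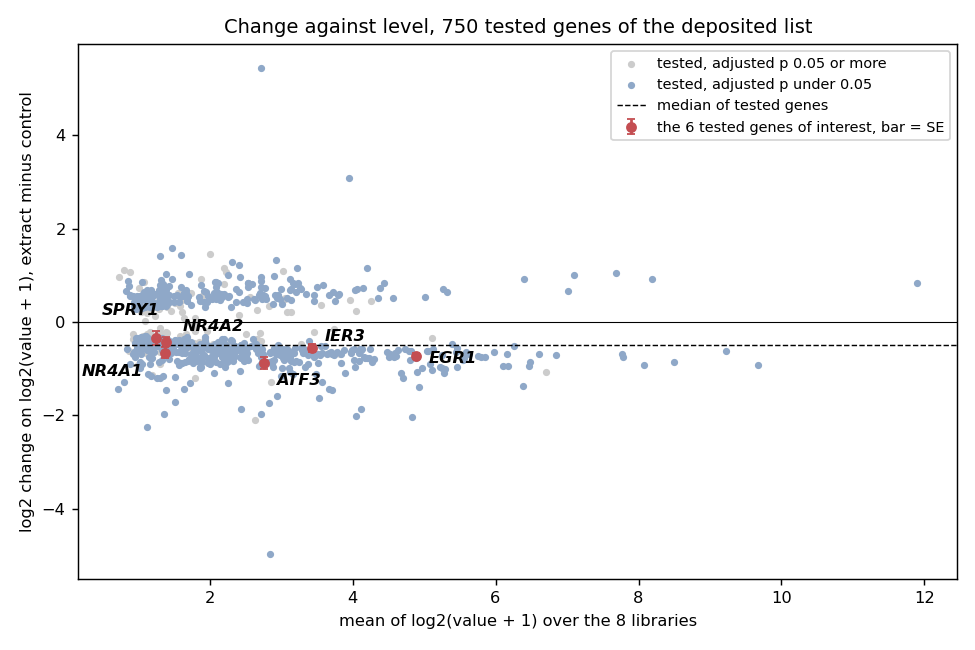
Log2 change, extract minus control (vertical axis), against the mean of log2(value + 1) over the 8 libraries for the 750 tested genes. The 6 tested genes of the group are in red with their standard errors. They lie within the band of genes called lower, around the dashed median of −0.5, and ATF3 has the lowest position of the 6.

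The genes did not rank the libraries in 1 common order. Among the extract libraries, number 3 was the highest for EGR1, ATF3 and SPRY1, number 2 for IER3, NR4A1 and FOSB, number 4 for NR4A2 and number 1 for PHLDA1. As a share of the control mean, EGR1 lay between 57.1% and 61.9% in the 4 extract libraries. ATF3 ranged from 39.4% to 62.8% and NR4A1 from 37.1% to 60.6%. FOSB ranged from 37.3% to 81.4% and SPRY1 from 49.7% to 89.3%, and PHLDA1 from 98.4% to 223%. IER3 ranged from 58.8% to 74.5% and NR4A2 from 54.4% to 69.5%. EGR1 thus had the narrowest range of the 8 and PHLDA1 the widest.

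The tested genes with profiles most like each member over the 8 libraries were mostly outside the immediate-early class. Likeness was the root-mean-square difference of log2(value + 1) profiles, each centred on its own mean, where 0 is identical. For EGR1 the nearest were the long noncoding RNA gene UCA1 (0.046), the unnamed locus ENSG00000260708 (0.051) and the selenoprotein gene SELENOH (0.051). Genes near to ATF3 were IL16 (0.122) and the unnamed locus ENSG00000274460 (0.133). SNHG30, STAP1 and MFSD2A were nearest to IER3, at 0.062, 0.079 and 0.086. RARA-AS1 (0.072), ACTN2 (0.086) and ZNF436-AS1 (0.106) were nearest to NR4A1. For NR4A2 the nearest were ENSG00000286016 (0.058), BCAS1 (0.068) and HCN2 (0.088), and for SPRY1 SLIT2 (0.098), ENSG00000269399 (0.103) and ENSG00000273064 (0.129). No member was among the 3 nearest genes of another member. That outcome is likely for any 6 of 750 tested genes, so it does not show whether the members moved together.

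Other genes of the same classes were looked up in 4 lists of 102 genes in all, of which 21 were in the table. Of these, 15 could be tested, 11 were called lower, 3 higher and 1 neither, with a median log2 change of −0.58. Among all 750 tested genes 56% were called lower and 26.8% higher, with a median of −0.5. The 81 genes not listed, among them FOS, JUN, JUNB, DUSP6, ETV4 and SPRY2, were not analysed here, so nothing is known of their levels. Among other immediate-early transcription factor genes (26, with 4 listed), MAFF, a small MAF factor, fell from 5.18 ± 0.329 to 2.62 ± 0.344 (limma adjusted p = 0.00026). KLF5, a Krüppel-like factor, fell from 1.41 ± 0.167 to 0.948 ± 0.158, a call lost without control 5 (limma adjusted p = 0.052) and with median centring (0.704). MYC, a growth-promoting factor that ERK stabilizes, went the other way, from 141 ± 2.49 to 295 ± 7.33.

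Among 31 immediate-early genes of other function 8 were listed and 7 tested, of which 5 fell and 2 rose. The shares over all tested genes were 56% called lower and 26.8% called higher. ID1, an inhibitor of helix-loop-helix factors, fell from 61.3 ± 7.95 to 34.0 ± 2.80. After quantile normalization ID1 was not called, at a limma adjusted p of 0.0855. The small GTPase gene RHOB fell from 11.4 ± 0.718 to 5.94 ± 0.821. The kinase gene SGK1 rose from 3.87 ± 0.567 to 7.98 ± 0.686 and the cytokine gene IL6 from 0.615 ± 0.193 to 3.81 ± 0.515 (limma adjusted p = 2.13e-05). IL6 passed the filter only through the 4 extract libraries, where it is high, with controls at 0.37 to 0.77. Its entry into the test thus depended on its rise. Without a filter its limma adjusted p was 7.04e-05. IL6 overlaps STEAP1B on the opposite strand. Other genes named in this text, among them CCND1, MAFF, PLAU, THBS1 and NR1D2, also overlap a gene on the opposite strand. Both directions were therefore present among immediate-early genes of the table.

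Of 20 genes grouped here as ERK feedback inhibitors beside SPRY1, 3 were listed, and the grouping does not mean that each acts mainly on ERK. DUSP10, a phosphatase of the stress kinases p38 and JNK more than of ERK, fell from 3.81 ± 0.522 to 2.22 ± 0.231 (limma adjusted p = 0.00189). DUSP8, a phosphatase of the same family, fell from 1.47 ± 0.184 to 0.733 ± 0.393, although extract library 3 (1.3) equalled the lowest control. Neither median centring (limma adjusted p = 0.15) nor quantile normalization (0.051) left DUSP8 called. SPRED3, a Sprouty-related gene too low to test, had 0.76 in control 2 and 0.03 to 0.07 in the other controls, against 0.36 to 0.67 with the extract.

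Of 25 further ERK-responsive outputs 6 were listed, all 6 lower in the authors' deposited table, and 3 were tested. Of all 1950 listed genes 1100 were lower there, so that direction was the more common one. The cyclin D1 gene CCND1 fell from 28.3 ± 0.629 to 17.2 ± 0.817. PHLDA2, an imprinted relative of PHLDA1, fell from 20.7 ± 1.07 to 9.22 ± 0.515, a log2 change of −1.09 (limma adjusted p = 3.06e-06). PLAU, the urokinase gene, had 1.74 to 2.05 in the controls and 1.05, 0.74, 16.89 and 0.87 with the extract. Its mean was higher with the extract only because of library 3, and without that library its log2 change was −0.59 (limma adjusted p = 0.0024, against 0.766 with all 8). EPHA4, an ephrin receptor gene too low to test, was 0.02 in 3 extract libraries and 0.42 in extract library 2, with controls at 0.14 to 0.29.

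**Figure D3:**
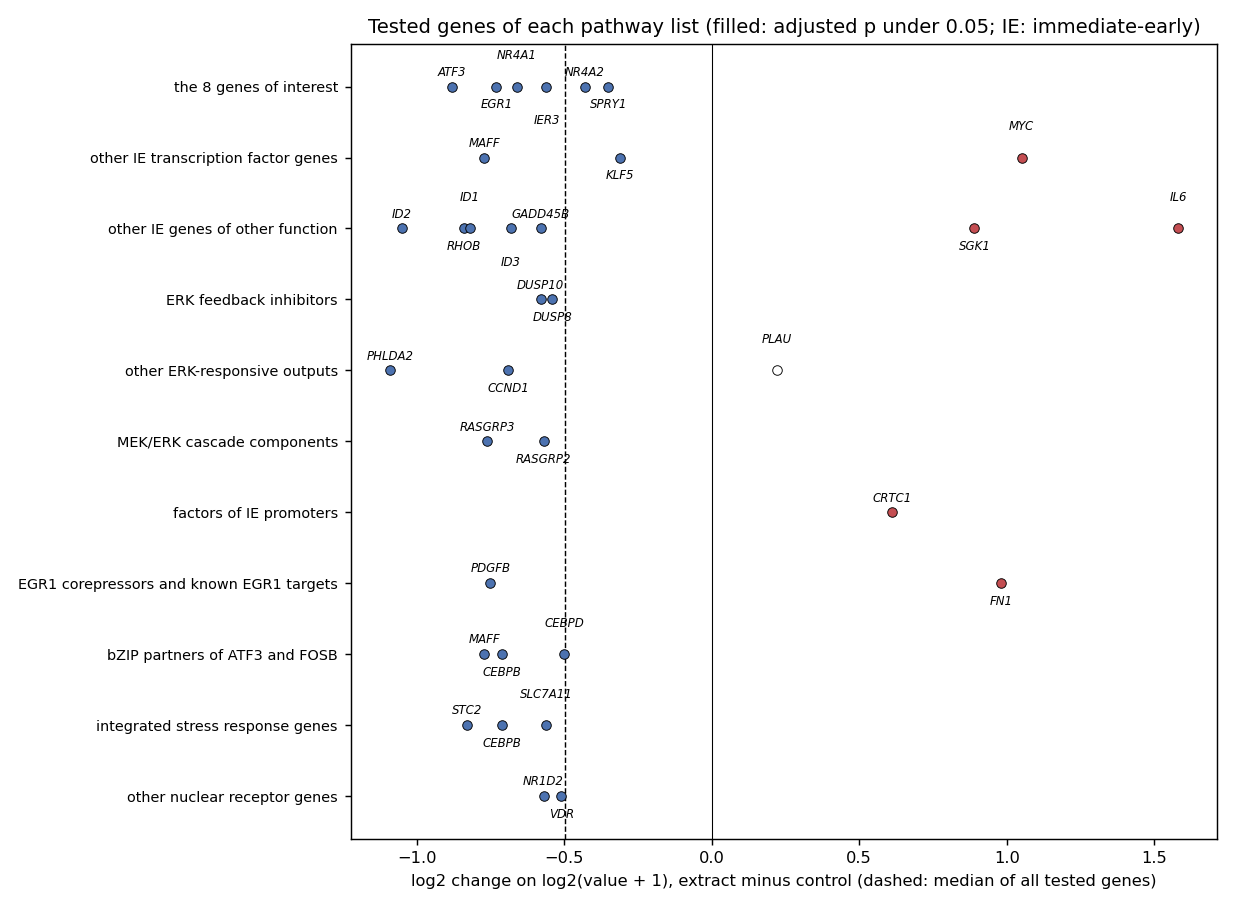
Log2 change, extract minus control (horizontal axis), of the tested genes of each list (rows), with blue for called lower, red for called higher and white for not called. Most of the genes lie left of 0 around the dashed median of −0.5, while MYC, IL6, SGK1, CRTC1 and FN1 were called higher.

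Genes that act upstream of these promoters were few in the table. Of 34 components of the MEK/ERK cascade 3 were listed, all from the regulators of RAS and none from the kinases RAF, MEK or ERK. RASGRP2 and RASGRP3, exchange factors that load RAS-family proteins, fell from 7.12 ± 1.05 to 4.45 ± 0.53 and from 3.94 ± 1.08 to 1.95 ± 0.789. Neither call held with median centring (limma adjusted p = 0.0655 for RASGRP2, 0.0967 for RASGRP3), and the groups overlapped for RASGRP3. RASAL3, a RAS-inactivating gene, was listed at 0 in every extract library and at 0.2 or less in the controls. Of 23 factors that switch on immediate-early promoters, such as SRF, ELK1 and CREB1, only CRTC1 was listed. CRTC1, a coactivator of CREB, rose from 1.58 ± 0.128 to 2.94 ± 0.273 (limma adjusted p = 0.000616).

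Tested genes downstream of EGR1 moved in both directions. Of 16 EGR1 corepressors and known targets 4 were listed, and neither corepressor gene, NAB1 nor NAB2, was among them. The fibronectin gene FN1 rose from 4.36 ± 1.06 to 9.46 ± 0.395 and the growth factor gene PDGFB fell from 6.02 ± 0.901 to 3.17 ± 0.306. THBS1, the thrombospondin gene, had 0.57 ± 0.208 and 1.12 ± 0.451, below the filter. With the filter at 0.5 THBS1 was called higher (limma adjusted p = 0.0424), and without a filter it was not (0.0641). The authors' deposited table gives THBS1 a log2 fold change of 0.94 with an adjusted p of 8.1e-08. There, 2 of the 4 listed genes were higher and 2 lower, against 850 higher and 1100 lower of all 1950 listed genes. PDGFB thus moved with EGR1 and FN1 against it, at 1 tested gene in each direction. Among all tested genes 56% were called lower and 26.8% higher, so so few genes do not set EGR1 targets apart from the table.

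Of 24 genes for leucine zipper partners of ATF3 and FOSB 3 were listed, and all 3 fell. MAFF is given above. CEBPB fell from 9.38 ± 2.61 to 5.21 ± 0.643 and CEBPD from 4.51 ± 0.752 to 2.89 ± 0.615, both C/EBP factors of inflammation and stress. Median centring took both calls away (limma adjusted p = 0.0543 and 0.2), and quantile normalization that of CEBPD (0.203). In the integrated stress response, which induces ATF3 through ATF4, 3 of 24 genes were listed and all 3 fell. Beside CEBPB these were the hormone gene STC2 (8.81 ± 0.861 to 4.54 ± 0.723) and the cystine transporter gene SLC7A11 (4.61 ± 0.414 to 2.79 ± 0.17). ATF4, DDIT3 and ASNS were not listed. Of 40 other nuclear receptor genes 4 were listed, and the 2 tested ones fell, NR1D2 (2.86 ± 0.236 to 1.61 ± 0.203) and VDR (3.08 ± 0.166 to 1.88 ± 0.189). NR5A2, too low to test, was at 0.17 to 0.25 in the controls and at 0.07 to 0.08 with the extract. Each of these lists holds few listed genes from a table in which 56% of tested genes were called lower.

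As a check of the cell line, 3 of 19 markers of K562 and of erythroid and megakaryocytic cells were listed, the globin gene HBZ, ITGA2B and SLC4A1. Their summed value, nearly all of it from HBZ, was 2840 to 2920 in the controls and 4950 to 5310 with the extract. ITGA2B, a megakaryocyte marker, went the other way, from 3.48 ± 0.718 to 2.02 ± 0.438 (limma adjusted p = 0.00972), and SLC4A1 was too low to test. The other 16, GATA1 among them, were not listed and cannot be checked here. Markers of other cells in the table also differed between the groups, which the authors' selection of changed genes fixed in advance. CD68, 1 of 10 monocyte and granulocyte markers, summed to 21.6 to 23.2 in the controls and 14.0 to 15.6 with the extract. The lymphocyte marker CD3D went from 42.3 ± 1.70 to 19.7 ± 2.10. COL1A1, 1 of 9 markers of fibroblasts and epithelium, was at 0.47 to 0.67 and 0.24 to 0.36. None of the markers named here was at 0 in every library, and the part of these markers in the results above was not tested. Summed over the listed genes, the values of a library came to 13114 to 14134, and no 2 libraries were identical.

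**Figure D4:**
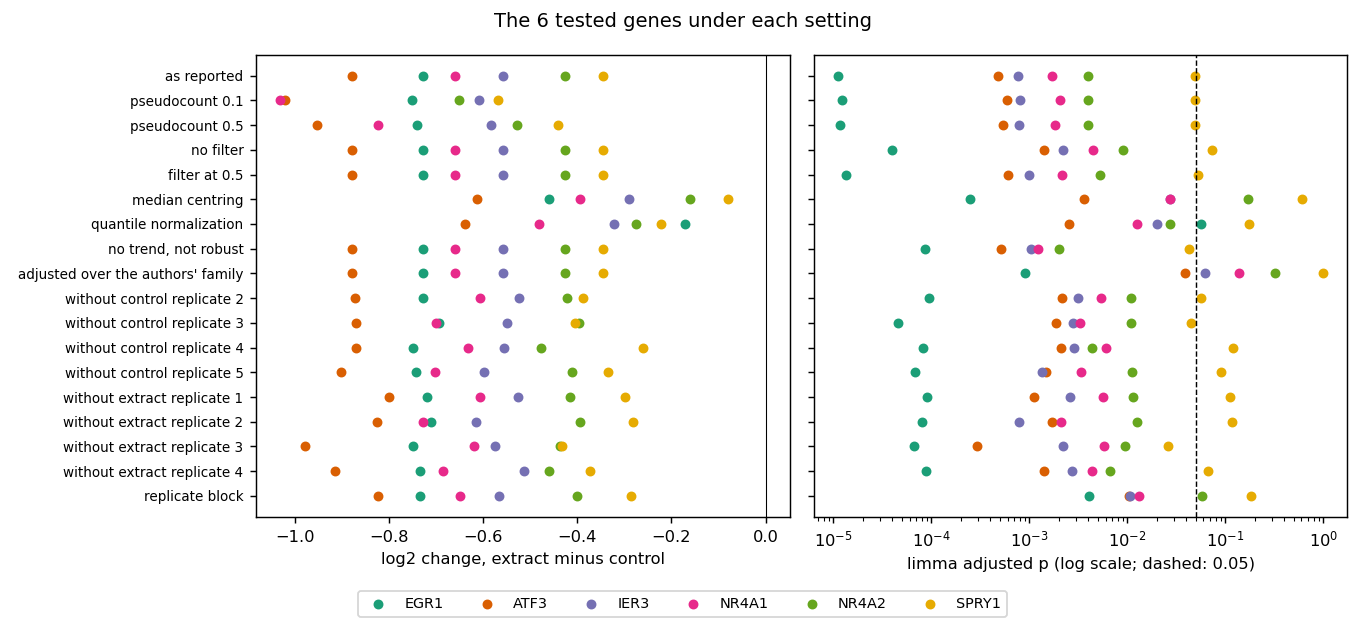
Log2 change, extract minus control (left), and limma adjusted p on a log axis with 0.05 dashed (right), of the 6 tested genes under each setting (rows). All changes lie below 0, and the adjusted p of ATF3 lies below 0.05 in every row, while that of SPRY1 crosses 0.05 in most.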

How the data were processed

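Libraries were made with a TruSeq kit from TRIzol RNA, per the labels' protocols. HISAT2, StringTie and GRCh38 are listed in the submitters' processing notes without versions or roles. The table deposited by the authors holds, per gene, 1 expression value per library (unit not stated), group means, a fold change as a ratio and as log2, and raw and adjusted p-values. Which tool gave the deposited p-values is not stated. Only genes picked by that test are in the table.

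The 750 genes that reached 1 in 4 or more of the 8 libraries were tested with limma 3.58.1 in R 4.3.3 (trended, robust) on log2(value + 1). Adjusted p is Benjamini-Hochberg over these 750 genes, called at 0.05. Extract libraries 1 to 4 were compared with control libraries 2 to 5. Single genes had an exact permutation test (scipy 1.17.1). Depth is unknown, so no counting interval is given. The family of 60664 genes was recovered from the deposited p-values and adjusted p-values, whose ranks came out whole (within 0.02) for 100% of 1379 usable genes. The limma step was checked on simulated data.

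The 8 genes, the lists and the tests were chosen with earlier results of these data known. Named beside the 8 were up to 4 listed genes per list, by lowest deposited p-value, and the 3 genes most alike for each tested member. NAB1, NAB2, SRF, ELK1, CREB1 and other genes named as not listed were picked as examples. Alternatives were other pseudocounts (0.1, 0.5) and filters, scalings, adjustment and variance settings, left-out libraries and a replicate block. A fit on the 6 libraries with shared numbers and no block was added after seeing the data. GENCODE v29 IDs matched 1866 of the 1950 genes. Promoters are from RefSeq. A gene near to ATF3 and a lymphocyte marker are not reported here.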

Additional observations from a re-analysis of the deposited data

Results flagged for a closer look

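Among the 37 named genes there were 73 sets of 4 libraries with any spread. In 7 sets 1 library stood far from the rest, and about 3.7 such sets would arise by chance. Among the members this was ATF3 in control 5, at 7.73 against 8.29 to 8.34 in the other controls. ID1 was also lowest in control 5, at 49.46 against 64.23 to 66.02. PLAU was at 16.89 in extract library 3 against 0.74 to 1.05. EPHA4 was at 0.42 in extract library 2 against 0.02 in the other 3. SPRED3 was at 0.76 in control 2 against 0.03 to 0.07, and RASAL3 at 0.2 in control 2 against 0 to 0.03. FN1 was lowest in extract library 1, at 8.87 against 9.56 to 9.7.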

How the results depend on the processing

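The 6 tested members had a negative log2 change under every alternative run. Calls lower among the 8 genes were 6 as reported and 2 over the family of 60664 genes, and lay between 5 and 6 without 1 library, with none higher. Over that family the calls of IER3, NR4A1, NR4A2 and SPRY1 were lost (limma adjusted p = 0.0617, 0.139, 0.32 and 1). Among the other immediate-early and ERK-responsive genes, 11 lower calls became 6 over the family and 8 with median centring or quantile normalization, and 3 were higher throughout. Over all tested genes, 420 lower and 201 higher calls became 122 and 45 over the family. Lower calls became 241 with median centring and 251 with quantile normalization, and higher calls 314 without a filter. Without 1 library, 369 to 394 genes were lower and 163 to 190 higher. The log2 change of PLAU was 0.22 with all libraries and lay between −0.59, reversed without extract library 3, and 0.53 when each library was left out in turn, and SPRY1 also lost its call without a filter (limma adjusted p = 0.0731) or with one at 0.5 (0.0522). The cause of these losses was not tested. Depth is unknown, and the low values of FOSB and PHLDA1 limit what can be said of them.

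Numbers 2 to 4 occur in both groups, but nothing in the labels says that they mark a shared culture or day. Over 750 genes, deviations from the group means of same-numbered libraries correlated at 0.075, 0.075 and 0.149, and with means over these 6 libraries alone at 0.101, 0.103 and 0.143. Different-numbered libraries correlated at −0.124 to 0.136 with means over all libraries, and at −0.106 to −0.012 with means over these 6 alone. Control 2 correlated best with extract 1 (0.136), and the highest value of all was that of control 4 with extract 4 (0.149). Whether the numbers mark pairs stayed unclear, and the pairing was not taken as given. With the replicate block, 4 members were lower, against 5 in the same 6 libraries without it, and 354 genes were lower and 161 higher. The call that differed among the members was that of NR4A2 (limma adjusted p = 0.0583 with the block and 0.0269 without). Among the other immediate-early and ERK-responsive genes it was that of DUSP8 (0.0686 and 0.0475).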
